A study of Mus musculus with 4 samples.

Results

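The 10 genes described here encode the sensors that detect RNA and DNA inside mouse cells, with the proteins that carry or relay their signal: Tlr3, Tlr7, Tlr8, Tlr9, Unc93b1, Ddx58, Ifih1, Dhx58, Mavs and Tmem173. They were taken by symbol from a table of 47725 Ensembl genes, and all 10 symbols were found, each on 1 row. The libraries were made from polyadenylated RNA of skin from C57BL/6J mice aged 17 weeks, in 2 groups of 2, and are numbered 2 and 3 in each group. The control group carried floxed alleles of Ppp6c, the catalytic subunit of protein phosphatase 6, and is titled PP6fl/fl. The other group is titled cKO, and the series title joins K5 to Pp6fl/fl, read here as deletion of the floxed gene in cells that use the keratin 5 promoter, that is, basal keratinocytes. Floxed alleles are thus shared by both groups, and the labels do not give sex, or say whether animals were pooled or the 2 libraries of a group came from separate animals, so p-values measure the spread between libraries, which may be technical.

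Nucleic acid sensing has an endosomal and a cytosolic arm. Toll-like receptors 3, 7, 8 and 9 sample RNA or DNA that reaches endosomes, and they leave the endoplasmic reticulum only with the chaperone Unc93b1. In the cytosol the helicases RIG-I (Ddx58) and MDA5 (Ifih1) bind viral-type RNA and signal through Mavs on mitochondria, LGP2 (Dhx58) tunes them, and STING (Tmem173) relays the detection of DNA. In skin, keratinocytes express mainly Tlr3 and the cytosolic helicases, whereas Tlr7, Tlr8 and Tlr9 are best known from myeloid cells, plasmacytoid dendritic cells and B cells.

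Library totals ran from 15837136 to 23407731 counts, and the members had between 68 and 1548 counts per library. Keratinocyte genes were abundant in all 4 libraries (values always run from replicate 2 to replicate 3), with Krt5 at 4414 and 4142 CPM (counts scaled for library size and by the trimmed mean of M-values, TMM) in control and at 5290 and 3164 CPM in cKO. The targeted gene Ppp6c stood at 57.8 and 61.8 CPM in control and at 62.1 and 50.1 CPM in cKO. Its log2 fold change of cKO over control was -0.09 ± 0.16 (SE, 2 against 2 libraries, adjusted p = 0.81 in edgeR's quasi-likelihood test), and this total over all cells and exons does not check the cKO label. Every value below was measured on bulk tissue, where fewer cells of a type and less RNA per cell cannot be told apart.

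Among the 10 sensor genes, 4 had higher and 2 had lower levels in both cKO libraries than in both control libraries. Those higher were the endosomal receptors Tlr7 and Tlr8, the chaperone Unc93b1 and the STING gene Tmem173, each at 2.05-fold to 2.86-fold the control level. The lower ones were Ifih1 and Mavs. In the remaining 4, Tlr3, Tlr9, Ddx58 and Dhx58, the libraries of the 2 groups overlapped. None of the 10 passed the test: edgeR's quasi-likelihood test with Benjamini-Hochberg adjustment over 17440 genes called 0 members, against 1.09% of all tested genes (0.740% higher and 0.350% lower in cKO). At an unadjusted p under 0.05 it gave 6 members, 4 higher and 2 lower, where 20.0% of all tested genes reached that level, 10.3% higher and 9.69% lower. DESeq2 called 5 members (Tlr7, Tlr8, Unc93b1 and Tmem173 higher, Ifih1 lower), where it called 10.8% of all tested genes, 6.19% higher and 4.62% lower. The edgeR exact test called 4 of them, leaving out Ifih1, where it called 10.2% of all tested genes, 5.57% higher and 4.64% lower. A false discovery rate under 0.05 stands beside 8.82% of the tested genes in the authors' deposited table, 5.04% higher and 3.78% lower, with Tlr8 and Unc93b1 among them and the other 8 members not. Groups did not overlap in 6 of 10 members and in 52.9% of all tested genes, 25.1% above and 27.7% below. The median log2 fold change was 0.28 over the members and -0.00 over all tested genes. All 10 members passed the filter on low counts.

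**Figure D1:**
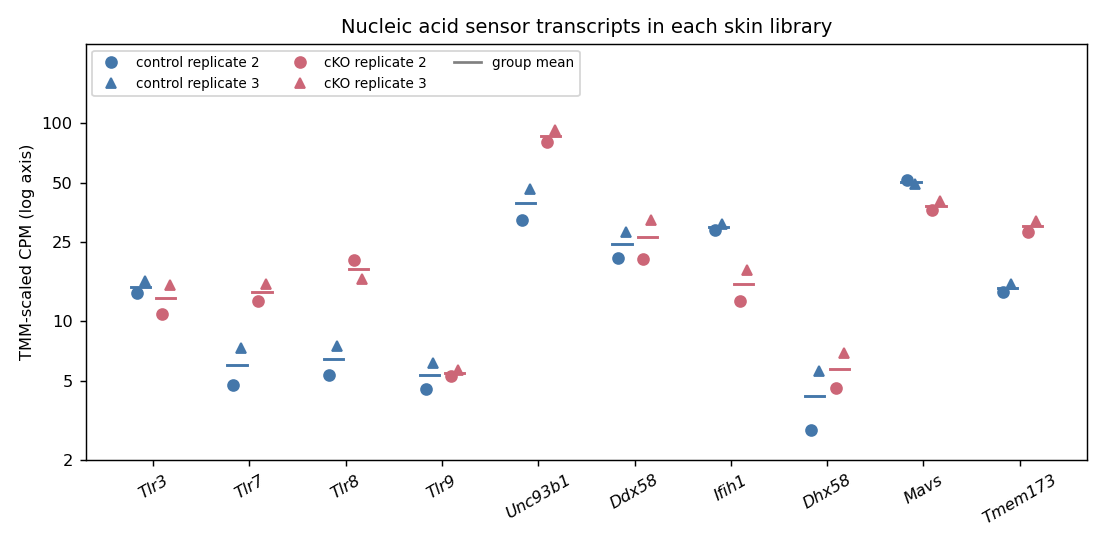
TMM-scaled CPM (log axis) of the 10 sensor genes in control (blue) and cKO (red) skin, with circles for replicate 2, triangles for replicate 3 and a line at each group mean. Tlr7, Tlr8, Unc93b1 and Tmem173 lay higher in both cKO libraries than in both controls, Ifih1 and Mavs lower, and the other 4 genes overlapped.

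Tlr8, an endosomal receptor, had the largest fold change of the members. It stood at 5.36 and 7.49 CPM in control and at 20.4 and 16.3 CPM in cKO, from 129 and 170 counts against 321 and 273. Both cKO libraries lay above both controls, and the gap between the groups exceeded the difference within either. The log2 fold change was 1.51 ± 0.28 (SE, 2 against 2 libraries, adjusted p = 0.0851 in edgeR's quasi-likelihood test), with a 95% interval from 0.77 to 2.26. DESeq2 called it at an adjusted p of 0.000499. The RefSeq promoter table for GRCm38.p6 holds 6 of the 10 members, and Tlr8 is the 1 among them with higher levels in both cKO libraries. Its 250 bases before the start, chrX:167264330-167264579 on the minus strand, are shown for that reason, with the match to the STAT element TTCNNNGAA in capitals.
Tlr8 upstream window: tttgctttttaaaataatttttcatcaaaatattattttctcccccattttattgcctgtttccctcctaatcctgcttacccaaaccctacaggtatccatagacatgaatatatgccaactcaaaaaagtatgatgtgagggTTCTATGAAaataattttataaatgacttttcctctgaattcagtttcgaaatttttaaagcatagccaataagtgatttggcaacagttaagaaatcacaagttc
The match spans positions -106 to -98 from the start, and the pattern TTCNNNGAA is met there on both strands. Of the 32851 windows in the table, each from 250 bases before to 50 after a start, 8.30% hold this element on either strand. A match is a description of the letters and not a site of binding.

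Tlr7, the neighbour of Tlr8 in the mouse annotation and a receptor for single-stranded RNA, stood at 4.78 and 7.31 CPM in control and at 12.6 and 15.5 CPM in cKO. Again both cKO libraries were above both controls. Its log2 fold change was 1.21 ± 0.31 (SE, 2 against 2 libraries, adjusted p = 0.137 in edgeR's quasi-likelihood test), and DESeq2 called it at an adjusted p of 0.0226. Tlr9, which recognises unmethylated CpG DNA, stood at 4.53 and 6.17 CPM in control and at 5.28 and 5.67 CPM in cKO. The cKO libraries lay between the control libraries, and the 95% interval of the log2 fold change ran from -0.77 to 0.83. The direction of Tlr9 was not settled: its log2 fold change of 0.03 became -0.032 with library size alone in place of TMM factors.

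Tlr3, the receptor for double-stranded RNA, stood at 13.8 and 15.9 CPM in control and at 10.9 and 15.2 CPM in cKO. The higher cKO library fell within the control range. The log2 fold change was -0.19 ± 0.26 (SE, 2 against 2 libraries, adjusted p = 0.743 in edgeR's quasi-likelihood test), with a 95% interval from -0.87 to 0.49, and it was 0.032 without cKO replicate 2. Its window was the only member window that held the NF-kB element (GGGA, any base, TTTCC), which 0.411% of all windows hold, and these 30 bases, chr8:45410572-45410601 on the minus strand, show it in capitals.
Tlr3 upstream stretch: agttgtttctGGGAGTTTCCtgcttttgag
The match lies at -211 to -202 from the start used by the table. An antisense gene overlaps Tlr3 in the mouse annotation, and reads of the 2 strands cannot be told apart where strand was not used.

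Unc93b1, the chaperone that all of these endosomal receptors need, was the member with the highest CPM in cKO skin. It stood at 32.3 and 46.3 CPM in control and at 80.2 and 92.4 CPM in cKO, from 778 to 1548 counts. Both cKO libraries lay above both controls. The log2 fold change was 1.13 ± 0.22 (SE, 2 against 2 libraries, adjusted p = 0.0913 in edgeR's quasi-likelihood test). DESeq2 called it at an adjusted p of 0.00282. The false discovery rate in the authors' deposited table was 0.00861 for Unc93b1 and 0.0139 for Tlr8.

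Tmem173, the STING gene, had the smallest p of the members in edgeR's quasi-likelihood test. In DESeq2 and the edgeR exact test Tlr8 had the smallest. Tmem173 stood at 14.1 and 15.3 CPM in control and at 28.3 and 32.0 CPM in cKO. Replicates of each group lay close together and the groups were well apart. The log2 fold change was 1.04 ± 0.18 (SE, 2 against 2 libraries, adjusted p = 0.0746 in edgeR's quasi-likelihood test), and DESeq2 called it at an adjusted p of 0.00105. Among 93 tested genes of the sensing pathways, those with the profile most like Tmem173 were Samhd1, Ifnar2 and Ctsk. Their root mean square distances from it, on centred log2 CPM over the 4 libraries, were 0.08, 0.12 and 0.14.

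Of the RIG-I-like helicases, Ifih1 alone had libraries that did not overlap, and differences between the helicases were not tested. Ifih1, which encodes the long double-stranded RNA sensor MDA5, stood at 28.8 and 30.9 CPM in control and at 12.7 and 18.1 CPM in cKO. Both cKO libraries were below both controls, a level 1.94-fold lower (log2 fold change -0.96 ± 0.24, SE, 2 against 2 libraries, adjusted p = 0.126 in edgeR's quasi-likelihood test). DESeq2 called it at an adjusted p of 0.0352. Ddx58, the RIG-I gene, stood at 20.7 and 28.3 CPM in control and at 20.6 and 32.5 CPM in cKO. Its groups overlapped, and in both groups replicate 3 was higher than replicate 2. The log2 fold change of 0.11 ± 0.30 had a 95% interval from -0.70 to 0.92 and turned to -0.10 without control replicate 2 and to -0.25 without cKO replicate 3.

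Dhx58, the gene of the regulatory helicase LGP2, had the lowest mean CPM of the members in control. It stood at 2.83 and 5.60 CPM in control and at 4.58 and 6.92 CPM in cKO. The gap between the libraries of each group was wider than the gap between the group means. Its log2 fold change of 0.45 ± 0.46 had a 95% interval from -0.78 to 1.68, so this depth and number of libraries left the direction undetermined. The antisense gene Dhx58os overlaps it, with 53 counts over the 4 libraries. Mavs, the adaptor that relays the signal of RIG-I and MDA5, stood at 51.7 and 48.9 CPM in control and at 36.3 and 40.3 CPM in cKO. Both cKO libraries were lower, by 0.39 ± 0.14 on the log2 scale (SE, 2 against 2 libraries, adjusted p = 0.232 in edgeR's quasi-likelihood test).

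Both Ifih1 and Ddx58 carry the core of the interferon-stimulated response element (GAAA, any 2 bases, GAAA) just after their start in the table, which 3.44% of all windows hold on either strand. The 30-base stretches are shown because both genes hold the element, with the match in capitals, at chr2:62646206-62646235 for Ifih1 and chr4:40239804-40239833 for Ddx58, both on the minus strand.
Ifih1: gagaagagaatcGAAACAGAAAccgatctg
Ddx58: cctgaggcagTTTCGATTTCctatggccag
In Ifih1 the match lies at positions 33 to 42 after the start, on the strand of the gene. The Ddx58 match lies at 3 to 12, on the opposite strand. The windows of Mavs and Tlr9 held none of the 3 elements searched, which says only that these letters are not in them.

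**Figure D2:**
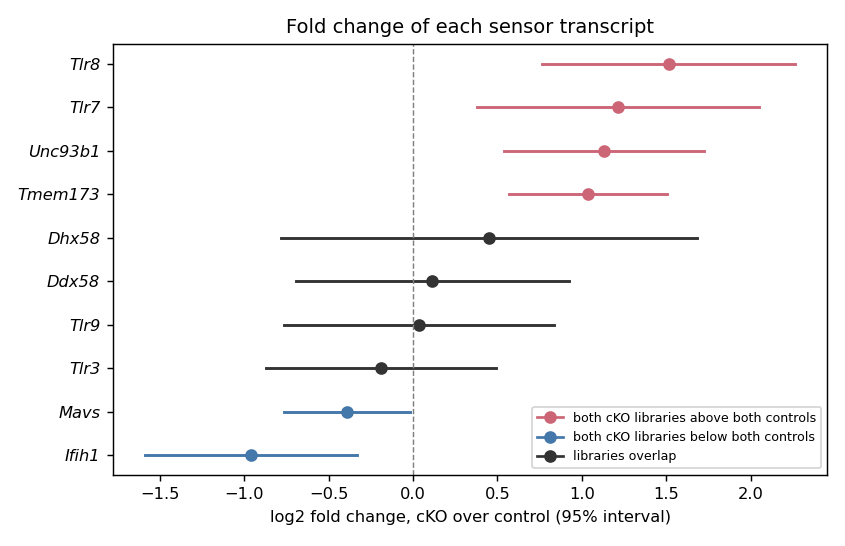
Log2 fold change of cKO over control for each member (points, edgeR quasi-likelihood fit) with its 95% interval (lines), coloured by whether the libraries of the 2 groups overlap. The intervals of Tlr8, Tlr7, Unc93b1 and Tmem173 lie above 0 and those of Ifih1 and Mavs below it, but no adjusted p is under 0.05, the smallest being 0.0746.

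Per length, the order of the members shifted between the groups. In control skin Mavs and Unc93b1 led, with means of 15.4 ± 0.71 and 14.1 ± 3.45 FPKM (SD, n = 2), and their libraries overlapped. Tmem173 followed at 6.53 ± 0.34 FPKM. Ifih1, Ddx58 and Tlr3 formed a middle group at 3.74, 3.55 and 3.46 FPKM that did not differ beyond its spread, separate from the genes above and below. At the bottom Tlr8, Tlr9, Tlr7 and Dhx58 stood at 1.83, 1.57, 1.51 and 1.32 FPKM, each overlapping the next.

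In cKO skin Unc93b1 led at 29.6 ± 2.25 FPKM (SD, n = 2), separate from Tmem173 at 12.8 ± 0.80 FPKM, which was in turn separate from Mavs at 11.2 ± 0.55 FPKM. Tlr8 came next at 5.01 ± 0.91 FPKM, in 4th place against 7th in control. Ddx58, Tlr7 and Tlr3 stood at 3.66, 3.35 and 2.89 FPKM, neighbours overlapping from Tlr8 down to Tlr3. Ifih1 had moved from 4th to 8th place, at 1.84 ± 0.42 FPKM, separate from Tlr3 above it but not from Dhx58 at 1.71 or, below that, Tlr9 at 1.54 FPKM.

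**Figure D3:**
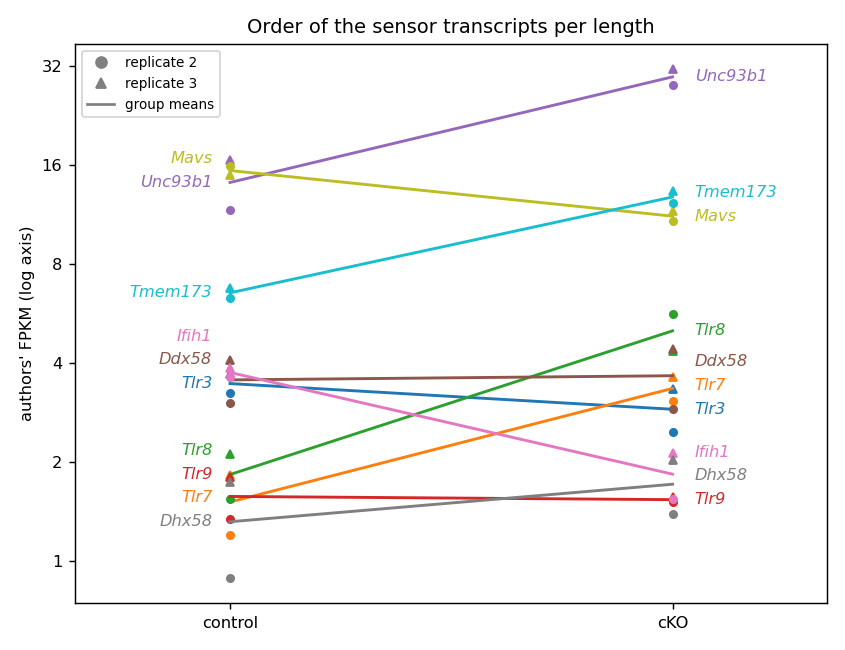
Authors' FPKM (log axis) of the 10 sensor genes in control and cKO skin, with circles for replicate 2, triangles for replicate 3 and lines joining group means. Tlr8, Tlr7, Tmem173, Unc93b1 and Dhx58 take higher places in cKO than in control, Ifih1, Mavs, Tlr9 and Tlr3 lower ones, and Ddx58 the same one.

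Markers of several cell types also differed between the groups, in both directions. Beside the counts of markers below, 25.1% of all tested genes were higher and 27.7% were lower in both cKO libraries. The 10 macrophage markers summed to 588 and 847 CPM in control and to 1291 and 1350 CPM in cKO, and 8 of them were higher in both cKO libraries. Adgre1 and Mertk overlapped between the groups, Adgre1 at 46.9 and 70.5 CPM in control and at 62.8 and 48.7 CPM in cKO. None of the sensor genes is on that list, so the ratio of a sensor to the sum, given in percent, sets separate quantities side by side. Tlr8 per macrophage sum was 0.91 and 0.88% in control and 1.58 and 1.21% in cKO. The same ratio was 0.81 and 0.86% against 0.98 and 1.15% for Tlr7, 5.49 and 5.47% against 6.21 and 6.84% for Unc93b1, 2.39 and 1.81% against 2.19 and 2.37% for Tmem173, and 0.77 and 0.73% against 0.41 and 0.42% for Tlr9. It overlapped between the groups for Tmem173, was higher in both cKO libraries for Tlr7, Tlr8 and Unc93b1, and was lower in both for Tlr9.

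The 8 neutrophil markers summed to 35.5 and 35.9 CPM in control and to 1361 and 992 CPM in cKO, all 8 higher in both cKO libraries. Most of the cKO sum came from S100a8, at 354 and 245 CPM, and S100a9, at 858 and 509 CPM, while Ly6g stood at 2.48 and 0.48 CPM. In control S100a8 stood at 2.53 and 1.32 CPM and S100a9 at 5.03 and 2.60 CPM. The largest marker there was Mmp9, at 13.3 and 19.6 CPM. Different genes thus led the sum in the 2 groups, and ratios without S100a8 and S100a9 were not computed. Against the sum of all 8 the sensor ratios were lower in both cKO libraries. Tlr8 stood at 15.1 and 20.9% of it in control and at 1.5 and 1.64% in cKO, and Tlr7 at 13.5 and 20.4% against 0.93 and 1.56%. The 10 dendritic and Langerhans cell markers went the other way, from 2021 and 3560 CPM to 653 and 800 CPM, 9 of them lower in both cKO libraries. Most of that sum came from H2-Ab1, H2-Aa and Cd74 in every library. Cd74 alone stood at 876 and 1645 CPM in control and at 235 and 365 CPM in cKO. Ratios to this sum are thus mainly ratios to these genes. Against it the sensor ratios were higher in both cKO libraries. Tlr8 stood at 0.27 and 0.21% of the sum in control and at 3.13 and 2.04% in cKO, and Tlr7 at 0.24 and 0.21% against 1.93 and 1.93%. The direction for Tlr9, Unc93b1 and Tmem173 was the same as for Tlr7 and Tlr8 against both of these sums. No marker of these lists was at 0 in all libraries. The 7 plasmacytoid dendritic cell markers summed to 651 and 755 CPM in control and to 868 and 749 CPM in cKO, mostly from Tcf4, Ly6d and Cox6a2, which other skin cells or muscle also express. Siglech, a defining marker of that cell, stood at 1.08 and 1.59 CPM in control and at 1.27 and 1.43 CPM in cKO. Of the 7 markers, 3 (Ccr9, Tcf4 and Pacsin1) were higher in both cKO libraries and 0 were lower in both. B cell markers summed to at most 7.16 CPM in any library. The T cell sum overlapped between the groups, at 27.9 and 36.9 CPM in control and 13.6 and 39.4 CPM in cKO. Of its 7 markers, 5 were lower in both cKO libraries, while Cd4 and Trdc overlapped. Cd4 and Trdc stood at 20.9 and 10.8 CPM in cKO replicate 3, against 5.47 and 2.04 CPM in cKO replicate 2. The 5 mast cell markers summed to 74.8 and 91.7 CPM in control and to 268 and 429 CPM in cKO. Keratinocyte markers summed to 22761 and 20856 CPM in control against 37205 and 42955 CPM in cKO. Of the 7, 3 (Krt1, Krt14 and Krt10) were higher and 2 (Trp63 and Dsp) lower in both cKO libraries. Krt1 went from 2367 and 2139 CPM to 8254 and 15258 CPM, and Krt14 from 3900 and 3007 CPM to 11502 and 7742 CPM. Fibroblast markers summed to 7187 and 6197 CPM against 19323 and 11940 CPM. The part of these cell types in the sensor values was not tested.

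**Figure D4:**
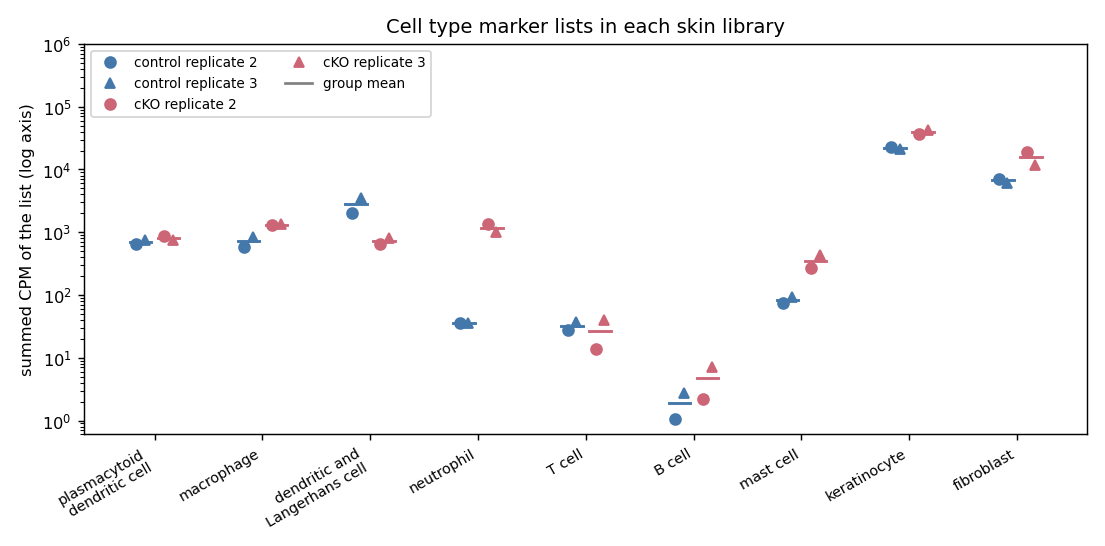
Summed TMM-scaled CPM (log axis) of 9 cell type marker lists in each library, with circles for replicate 2, triangles for replicate 3 and a line at each group mean. The macrophage, neutrophil, mast cell, keratinocyte and fibroblast sums lie higher and the dendritic and Langerhans cell sum lower in both cKO libraries.

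Counts for this list and those below stand beside shares of all tested genes. These were 1.09% called by edgeR's quasi-likelihood test, 10.8% by DESeq2 and 10.2% by the edgeR exact test. An unadjusted p under 0.05 in edgeR's quasi-likelihood test was reached by 20.0%. Of the 3 other endosomal Toll-like receptors of the mouse, edgeR's quasi-likelihood test called 1, DESeq2 called 2 and the edgeR exact test called 3, as did the false discovery rate in the authors' deposited table. Tlr13, a receptor for bacterial ribosomal RNA, rose from 1.75 and 2.29 CPM to 17.1 and 22.4 CPM, a log2 fold change of 3.29 ± 0.30 (SE, 2 against 2 libraries, adjusted p = 0.0429 in edgeR's quasi-likelihood test). At 4.16 and 5.27 FPKM in cKO it stood near Tlr8 per length, against 0.44 and 0.57 FPKM in control. Tlr11 and Tlr12, which recognise the parasite protein profilin, stood at 2.33 and 5.37 CPM and at 0.62 and 1.19 CPM in control. Their cKO values were 0.51 and 0.42 CPM and 0.19 and 0.06 CPM. Neither passed edgeR's quasi-likelihood test, at adjusted p = 0.0904 and 0.144, and both passed the edgeR exact test, at 0.000753 and 0.0155. DESeq2 called Tlr11 (adjusted p = 0.00239) and gave Tlr12 no adjusted p.

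Surface Toll-like receptors, given for comparison, had 0 of 5 called in the same test, with 4 at an unadjusted p under 0.05 and 4 called by DESeq2, all higher. Tlr1, Tlr4 and Tlr6 stood at 2.82 ± 0.43, 1.25 ± 0.21 and 1.74 ± 0.31 (log2 fold change, SE), with a median of 1.74 over the list. The difference between this list and the endosomal receptors was not tested.

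Proteins that traffic or cleave the endosomal receptors had 2 of 11 called by edgeR's quasi-likelihood test, both higher, against 5 by DESeq2 and 4 by the edgeR exact test, all higher. Legumain (Lgmn), an asparagine endopeptidase that cleaves Tlr9 in endolysosomes, rose from 66.2 and 67.9 CPM to 220 and 259 CPM, a log2 fold change of 1.84 ± 0.15 (SE, 2 against 2 libraries, adjusted p = 0.0428 in edgeR's quasi-likelihood test). Cd14, a co-receptor that hands ligands to Toll-like receptors and is best known from monocytes, rose from 6.69 and 9.03 CPM to 176 and 82.0 CPM (log2 fold change 4.03 ± 0.46, SE). With median-of-ratios factors or limma voom Cd14 lost its call. The median over the list was 0.64. Cathepsin K (Ctsk), at 0.98 ± 0.15 on the log2 scale, did not pass edgeR's quasi-likelihood test (adjusted p = 0.0629) and was called by DESeq2 (2.34e-05) and the exact test (0.00283).

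Downstream of the receptors few values stood out. Of 11 adaptor and kinase genes, 0 were called by edgeR quasi-likelihood and 0 by DESeq2, with 3 at an unadjusted p under 0.05. These were Irak4, Traf6 and Myd88, the adaptor of most Toll-like receptors, at log2 fold changes of 0.54 ± 0.16, 0.39 ± 0.13 and 0.41 ± 0.14. Regulators of the RIG-I-like helicases had 0 of 10 called, 0 at an unadjusted p under 0.05 and 0 by DESeq2. Of these Cyld, a deubiquitinase, had -0.32 ± 0.15, Tomm70a, a mitochondrial import receptor, 0.29 ± 0.16, and Usp4 0.20 ± 0.14.

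Other cytosolic sensors had 0 of 16 called, with 2 at an unadjusted p under 0.05 and 2 called by DESeq2. In both cases these were the inflammasome sensor Nlrp3, at 0.46 and 1.06 CPM in control and 17.1 and 9.97 CPM in cKO, and Oasl1. Oasl1, an oligoadenylate synthase-like protein, had a log2 fold change of 2.52 ± 0.57 and Oas2 one of 0.76 ± 0.31. Among nucleases that clear self nucleic acids, 1 of 13 tested was called, against 2 by DESeq2 and 2 by the exact test. Dnase1l3, a secreted DNase made by dendritic cells and macrophages, fell from 61.7 and 60.8 CPM to 23.0 and 18.7 CPM, a log2 fold change of -1.55 ± 0.17 (SE, 2 against 2 libraries, adjusted p = 0.0476 in edgeR's quasi-likelihood test). Samhd1, a dNTPase, had 0.92 ± 0.15 and did not pass edgeR's quasi-likelihood test (adjusted p = 0.0733), but was called by DESeq2 (0.000795) and the exact test (0.0059). Trex1 was listed at 0 counts in all 4 libraries.

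The transcription factors that answer these sensors had 0 of 8 called, 2 at an unadjusted p under 0.05 and 0 by DESeq2. Irf9, Irf1 and Irf5 had log2 fold changes of -0.49 ± 0.14, -0.61 ± 0.20 and -0.50 ± 0.20. Of the 8 factors, 6 were lower and 0 higher in both cKO libraries, beside 27.7% and 25.1% of all tested genes. In the lists above, 4 of 5 surface receptors were higher and 0 lower by this count. The counts were 7 and 1 of 11 trafficking and processing genes, and 6 and 1 of 11 adaptors and kinases. They were 8 and 0 of 16 other cytosolic sensors, and 8 and 1 of 13 tested nucleases. Helicase regulators had 2 and 2 of 10, and the other endosomal receptors 1 and 2 of 3. The interferon ligands on the list were at the limit of detection, and other interferon ligands were not examined. Ifnb1, Ifne, Ifna2 and Ifna4 had 0 counts in all 4 libraries, Ifnk 1 count and Ifng 3 counts in a single control library each. A count of 0 allows up to 3 counts, or 0.125 to 0.191 CPM depending on the library, covering counting error only.

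Of the 6 tested receptor genes of interferons, 0 were called, with 3 at an unadjusted p under 0.05 and 2 called by DESeq2, Ifnar2 higher and Ifnlr1 lower. Ifnlr1, the interferon lambda receptor, had -1.31 ± 0.30 on the log2 scale, Ifnar2, a chain of the type I receptor, 0.82 ± 0.20 and Il10rb 0.73 ± 0.20. Interferon-stimulated effectors had 0 of 15 called, 3 at an unadjusted p under 0.05 and 0 by DESeq2, and their median was 0.36. Usp18, which removes ISG15 and restrains the type I receptor, had -1.27 ± 0.39, Gbp2 -0.77 ± 0.23 and Trim30a 0.82 ± 0.26. These effectors thus had members on both sides of 0, 10 positive and 5 negative.

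**Figure D5:**
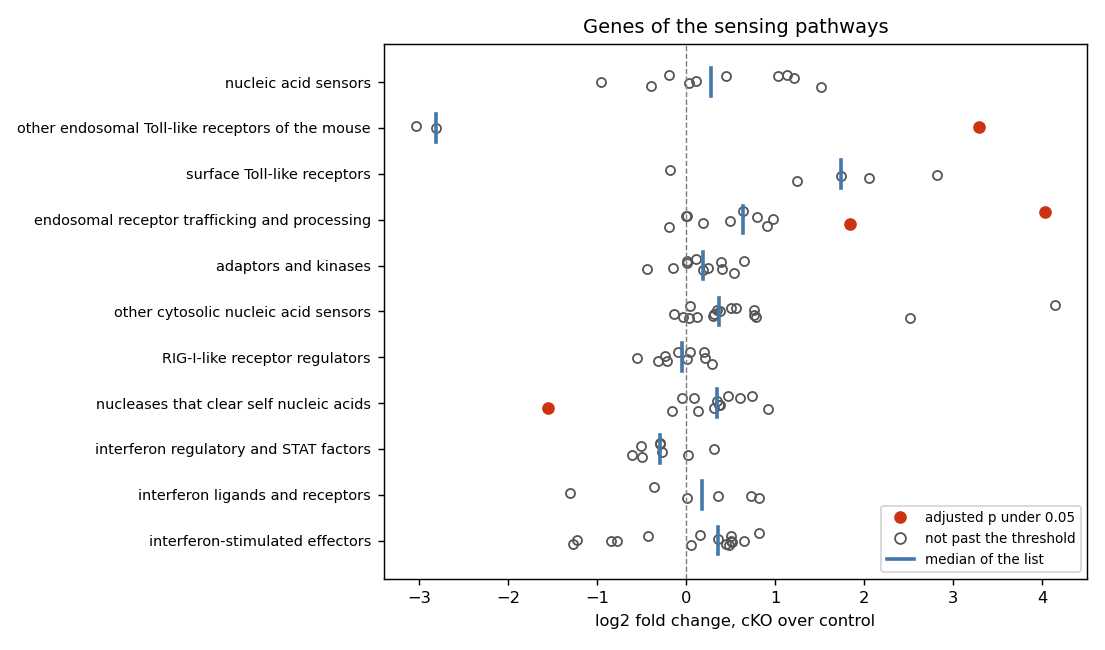
Log2 fold change of cKO over control for each tested gene of the sensing pathways, by list, with filled red points for an adjusted p under 0.05 (edgeR quasi-likelihood) and a blue bar at the median of the list. The 4 filled points are Tlr13, Lgmn, Cd14 and Dnase1l3.

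All 4 called pathway genes lost their call when control replicate 2 or control replicate 3 was left out, where the test called 0 genes of any kind. Such a fit leaves 1 library in an arm and takes the spread from the other group, as if the lone library varied like it. Without a cKO library all 4 passed on the spread of the controls alone, which is no sign of stability.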

How the data were processed

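Oligo(dT)-selected RNA of mouse skin was sequenced with TruSeq libraries, per the labels' protocols. The estimated counts per gene are the authors', per the submitters' processing notes from RSEM, and were deposited as whole numbers. FPKM per library is the authors', per the file headers. The deposited log2 fold change, p-value and false discovery rate are the authors', edgeR being named in the notes. The notes name build mm8; the aligner, the annotation and whether strand was used are not given in those sources. Columns headed Ctr were taken as the floxed group, the only one besides cKO. The table has 4 empty lines, not analysed here.

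Genes were filtered with filterByExpr, scaled with TMM and tested with edgeR 4.0.16 (R 4.3.3, limma 3.58.1, DESeq2 1.42.0), cKO against control, no covariate, Benjamini-Hochberg threshold 0.05. SE is the unshrunk log2 fold change over the root of F, and 95% intervals use the fit's degrees of freedom. An exact permutation test of 2 against 2 libraries cannot go below p = 0.333. Scripts were tested on simulated data. There were 13 alternatives.

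Members, lists and motifs were chosen with earlier results of these data known. Named genes were the members, Ppp6c, the called genes of each list (otherwise the 3 with the smallest p) and the 3 profiles nearest to Tmem173. Marker genes, Tlr11, Tlr12, Trex1, Dhx58os and the interferon genes at 0 to 3 counts were named after their values were seen.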

Additional observations from a re-analysis of the deposited data

How the results depend on the processing

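The edgeR quasi-likelihood test called 190 genes, 0 of 10 members and 4 of the 98 tested genes of the pathway lists, the surface receptors included. DESeq2 called 1886, 5 and 17, the edgeR exact test 1780, 4 and 16, and the test with no filter 883 of 27832, 1 (Tlr8) and 11. Limma called 295 genes on log2(FPKM + 0.1) and 383 on log2(FPKM + 1), with 0 members in both. Leaving out single libraries gave 0 to 1664 genes, 0 to 1 members (Tmem173 without cKO replicate 2, Ifih1 without cKO replicate 3) and 0 to 15 pathway genes. With the replicate number as a block the test called 1177 genes (6.75% of those tested), 2 members (Unc93b1 and Tmem173) and 10 pathway genes. Deviations of same-numbered libraries correlated at 0.41 over genes, but with 2 numbers the labels alone do not show that they pair the libraries.

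Tlr7, Tlr8, Unc93b1, Tmem173, Ifih1, Mavs and Dhx58 kept their direction in all 13 alternatives. Tlr9 turned with library size alone (-0.032), on log2(FPKM + 0.1) (-0.017) and on log2(FPKM + 1) (-0.014), and ran from -0.17 to 0.29 when single libraries were left out. By the same omissions Tlr3 ran from -0.44 to 0.032, Ddx58 from -0.25 to 0.40 and Ppp6c from -0.26 to 0.062. The cause of these changes was not tested.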

Other observations

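Ratios between members within a library do not depend on the scaling between libraries. The Ifih1 to Ddx58 ratio of FPKM was 1.20 and 0.94 in control replicates 2 and 3 and 0.53 and 0.48 in cKO replicates 2 and 3. Tmem173 stood at 0.40 and 0.46 of the Mavs FPKM in control and at 1.13 and 1.15 of it in cKO. Tlr7 stood at 0.90 and 1.01 of the Tlr9 FPKM in control and at 2.03 and 2.33 of it in cKO. Unc93b1 stood at 8.73 and 9.21 times the Tlr9 FPKM in control and at 18.6 and 20.0 times in cKO. Tlr8 stood at 1.15 and 1.18 times the Tlr9 FPKM in control and at 3.74 and 2.79 times in cKO, and Ifih1 at 0.23 and 0.26 of the Mavs FPKM against 0.14 and 0.18. Tlr8 to Tlr7 overlapped, at 1.28 and 1.16 in control and 1.85 and 1.20 in cKO. Of the 7 ratios computed, 6 did not overlap between the groups, and pairs were chosen with results of these data known, so no test is given.

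Replicate 3 was higher than replicate 2 for 9 of 10 members in control and for 9 of 10 in cKO, the exceptions being Mavs in control and Tlr8 in cKO. The share of all tested genes with replicate 3 higher was not computed, so these counts are not read as a trait of the members. The largest such difference was that of Dhx58 in control, at -0.99 on the log2 scale of replicate 2 over replicate 3.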
